A study of Mus musculus with 20 samples.

Results

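The mouse proteasome and immunoproteasome genes were followed in bone marrow-derived macrophages exposed to fractions of airway lavage fluid. Members were all protein-coding genes whose symbol starts with Psma, Psmb, Psmc, Psmd, Psme, Psmf or Psmg followed by a digit and whose mean level over the 20 libraries was at least 3 CPM, the count relative to the total of its library. The rule took 48 of 51 genes with such symbols, out of 10640 genes at that level. The members nearest above the limit were Psmg3, Psmg2 and Psmd13, with means of 11.7, 12.9 and 12.998 CPM, and the highest was Psma2 with 708 CPM. Below it lay Psmc3ip at 1.59 CPM with 2 to 16 counts per library, Psma8, a testis alpha subunit, at 1.24 CPM with 3 to 14 counts, and Psmb11, the thymus beta subunit, at 0 counts in every library. Of the 48, Psme3ip1 is named for an interacting protein and is not a subunit, and Psme2b is a Psme2-like gene.

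The macrophages were grown from wild-type C57BL/6J bone marrow and used on day 7 in Opti-MEM without serum. There were 5 treatments of 4 libraries each. PBS was the vehicle control. The other 4 treatments were size-exclusion fractions of lavage fluid from mice with ovalbumin airway inflammation, which had been kept for 5 days. They were enriched in extracellular vesicles (EVFx, 35000000 particles per µL) or in protein (ProteinFx, 0.75 µg per µL). Each came from RNY1+/+ or RNY1-/- fluid donors, the latter CRISPR knockouts of the Y RNA gene RNY1, so the genotype is that of the donors and never of the macrophages. The doses of the fractions were set on different scales, so a difference between EVFx and ProteinFx is also a difference of dose. Separate cultures, mice or fluid pools behind the 4 replicates of a treatment are not stated in the labels, so the p-values measure only the spread between these samples, which may be technical.

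The proteasome degrades proteins tagged with ubiquitin. Its 20S core is a barrel of outer alpha rings (Psma genes), which gate the entrance, and inner beta rings (Psmb genes), which hold the catalytic sites. The 19S cap unfolds substrates with a ring of ATPases (Psmc genes) and recognises and deubiquitinates them with non-ATPase subunits (most Psmd genes). In immune cells the catalytic subunits Psmb5, Psmb6 and Psmb7 are exchanged for Psmb8, Psmb9 and Psmb10 in newly built particles, and the 11S cap of Psme1 and Psme2 (PA28 alpha and beta) can replace the 19S cap. Interferon gamma is the classical inducer of these 5 genes, whose particles cut peptides suited for display on MHC class I. They are called the immunoproteasome genes here.

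Total counts per library ranged from 2510005 to 8277366, and the 48 genes took 0.504% to 0.865% of them. All 8 macrophage markers were found, with a summed level of 8567 to 13490 CPM. Fibroblast markers summed to 10.8 to 51.4 CPM, neutrophil markers to 2.26 to 20.9 CPM and airway epithelium markers to 3.26 to 19.5 CPM, each highest in a PBS library except the epithelial ones. Markers of eosinophils, T cells, B cells and dendritic cells summed to at most 2.83 CPM in any library, and 1 of 3 eosinophil and 1 of 4 epithelial markers were at 0 throughout. PBS replicate 3 stood apart from the other PBS libraries. The RNY1-/- ProteinFx libraries lay in pairs, replicates 1 and 2 against 3 and 4. The main results that rest on them are given with and without them, and not every such value is shown. In bulk samples, fewer cells that express a gene and less RNA per cell cannot be told apart.

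The promoter windows of the 5 immunoproteasome genes are shown because these genes were higher than PBS in all 4 fraction groups. Each window runs from 250 bases before to 50 bases after a RefSeq start on GRCm38.p6 and is printed 5′ to 3′ on the gene's strand. Capitals mark the core of an interferon regulatory factor element (GAAANNGAAA) or of a gamma-activated site (TTCNNNGAA), searched on both strands. The windows are Psmb8 at chr17:34197945-34198244, plus strand, Psmb9 at chr17:34187281-34187580, minus strand, Psmb10 at chr8:105938343-105938642, minus strand, Psme1 at chr14:55578244-55578543, plus strand, and the first of a pair of Psme2 starts at chr14:55591052-55591351, minus strand.
Psmb8: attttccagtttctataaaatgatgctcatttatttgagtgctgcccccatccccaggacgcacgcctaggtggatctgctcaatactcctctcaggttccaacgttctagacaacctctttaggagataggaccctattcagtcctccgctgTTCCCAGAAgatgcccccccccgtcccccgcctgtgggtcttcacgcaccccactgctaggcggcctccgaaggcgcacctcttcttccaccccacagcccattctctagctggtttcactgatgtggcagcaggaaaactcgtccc
Psmb9: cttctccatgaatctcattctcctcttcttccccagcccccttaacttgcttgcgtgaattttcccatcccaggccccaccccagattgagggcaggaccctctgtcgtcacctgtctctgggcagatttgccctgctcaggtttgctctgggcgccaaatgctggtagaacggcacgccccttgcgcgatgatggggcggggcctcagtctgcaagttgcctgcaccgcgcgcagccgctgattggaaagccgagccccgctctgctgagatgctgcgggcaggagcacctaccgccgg
Psmb10: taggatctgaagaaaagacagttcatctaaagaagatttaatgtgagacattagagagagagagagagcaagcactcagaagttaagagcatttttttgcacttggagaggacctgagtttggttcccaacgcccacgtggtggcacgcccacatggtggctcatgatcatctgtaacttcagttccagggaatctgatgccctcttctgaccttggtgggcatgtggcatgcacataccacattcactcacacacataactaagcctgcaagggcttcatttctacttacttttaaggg
Psme1: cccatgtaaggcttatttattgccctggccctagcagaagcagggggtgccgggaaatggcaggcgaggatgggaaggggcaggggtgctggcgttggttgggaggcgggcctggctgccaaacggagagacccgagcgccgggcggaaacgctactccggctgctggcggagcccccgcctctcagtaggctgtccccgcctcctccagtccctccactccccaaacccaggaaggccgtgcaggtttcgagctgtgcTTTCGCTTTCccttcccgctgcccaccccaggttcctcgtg
Psme2: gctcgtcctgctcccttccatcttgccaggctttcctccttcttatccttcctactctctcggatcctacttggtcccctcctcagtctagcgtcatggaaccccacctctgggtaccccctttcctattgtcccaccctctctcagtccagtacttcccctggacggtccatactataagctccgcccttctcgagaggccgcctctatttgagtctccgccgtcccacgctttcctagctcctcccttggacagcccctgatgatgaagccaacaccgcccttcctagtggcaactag
Psmb8 held the gamma-activated site core, 97 bases before its RefSeq start, and Psme1 held the interferon regulatory factor core, 9 bases after its RefSeq start. GENCODE begins Psmb8 at chr17:34197721, Psmb9 at chr17:34187764 and Psme1 at chr14:55578123. The windows of these genes thus lie wholly inside their GENCODE spans and need not be upstream of every start. No such letters occurred in the windows of Psmb9, Psmb10 or Psme2. Windows were found for 41 of the 48 genes, and none for Psmb1, Psmb2, Psmb7, Psmc3, Psmd3, Psmd7 and Psmg2. The interferon regulatory factor core was in 5 of the 41 genes (12.2%: Psmb3, Psmd4, Psmd9, Psme1 and Psmg4), beside 3.99% of all 27025 genes with windows. The gamma-activated site core was in 3 of 41 (7.32%: Psmb8, Psmd2 and Psmg1), beside 9.55% of all genes.

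The core of the antioxidant response element (TGACNNNGC), which NRF family factors including Nfe2l1 bind, was searched in the same windows. It was in 6 of the 41 genes (14.6%: Psmb5, Psmb6, Psmc6, Psmd12, Psmd9 and Psme4), beside 13.99% of all genes, and in none of the 5 immunoproteasome windows. The sites of the exchanged subunits Psmb5 (chr14:54618026-54618050, minus strand) and Psmb6 (chr11:70525340-70525364, plus strand) are shown with the match in capitals.
Psmb5: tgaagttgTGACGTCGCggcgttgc
Psmb6: aaagagagTGACGGAGCgctttacg
These matches are descriptions of letters in the reference and show no binding.

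Psmb8, the inducible subunit with chymotrypsin-like activity, was measured at 128, 116, 56.3 and 90.9 CPM in the PBS libraries, 318, 288, 239.9 and 326 in RNY1+/+ EVFx, 193, 206, 145 and 160.0 in RNY1-/- EVFx, 192, 170.1, 209.6 and 172 in RNY1+/+ ProteinFx and 215, 234, 125 and 142 in RNY1-/- ProteinFx. Every EVFx and RNY1+/+ ProteinFx library lay above every PBS library, and 1 RNY1-/- ProteinFx library lay inside the PBS range. Psmb9, the inducible subunit in the caspase-like position, was measured at 30.7, 31.7, 17.8 and 26.2 CPM in the PBS libraries, 57.1, 65.9, 47.3 and 59.0 in RNY1+/+ EVFx, 53.6, 52.0, 36.0 and 38.0 in RNY1-/- EVFx, 65.8, 72.5, 56.5 and 64.4 in RNY1+/+ ProteinFx and 77.8, 93.4, 57.0 and 60.7 in RNY1-/- ProteinFx. The 4 PBS libraries were the lowest of the 20, and the highest values were in RNY1-/- ProteinFx replicates 1 and 2.

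Psmb10, the inducible subunit with trypsin-like activity, stood at 60.2, 67.4, 35.9 and 51.6 CPM in the PBS libraries, 149, 138, 109 and 143 in RNY1+/+ EVFx, 102, 107, 73.9 and 92.4 in RNY1-/- EVFx, 156, 156, 153 and 147 in RNY1+/+ ProteinFx and 155, 173, 131 and 129 in RNY1-/- ProteinFx. No PBS library overlapped with any other group, and the RNY1-/- EVFx libraries were the lowest of the treated ones. Psme1, PA28 alpha, stood at 107, 98.4, 65.6 and 79.5 CPM in the PBS libraries, 256, 247, 190.2 and 257 in RNY1+/+ EVFx, 178, 205, 137 and 159.9 in RNY1-/- EVFx, 177, 171, 196 and 165 in RNY1+/+ ProteinFx and 193, 198, 142 and 145 in RNY1-/- ProteinFx. Psme2, PA28 beta, stood at 129, 128, 80.2 and 106 CPM in the PBS libraries, 485, 463, 380.3 and 489 in RNY1+/+ EVFx, 327, 349.5, 291 and 315 in RNY1-/- EVFx, 273, 282, 261 and 228 in RNY1+/+ ProteinFx and 238, 278, 201 and 191 in RNY1-/- ProteinFx. For both PA28 genes the PBS libraries were the lowest of the 20, and for Psme2 the RNY1+/+ EVFx libraries were the highest.

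**Figure D1:**
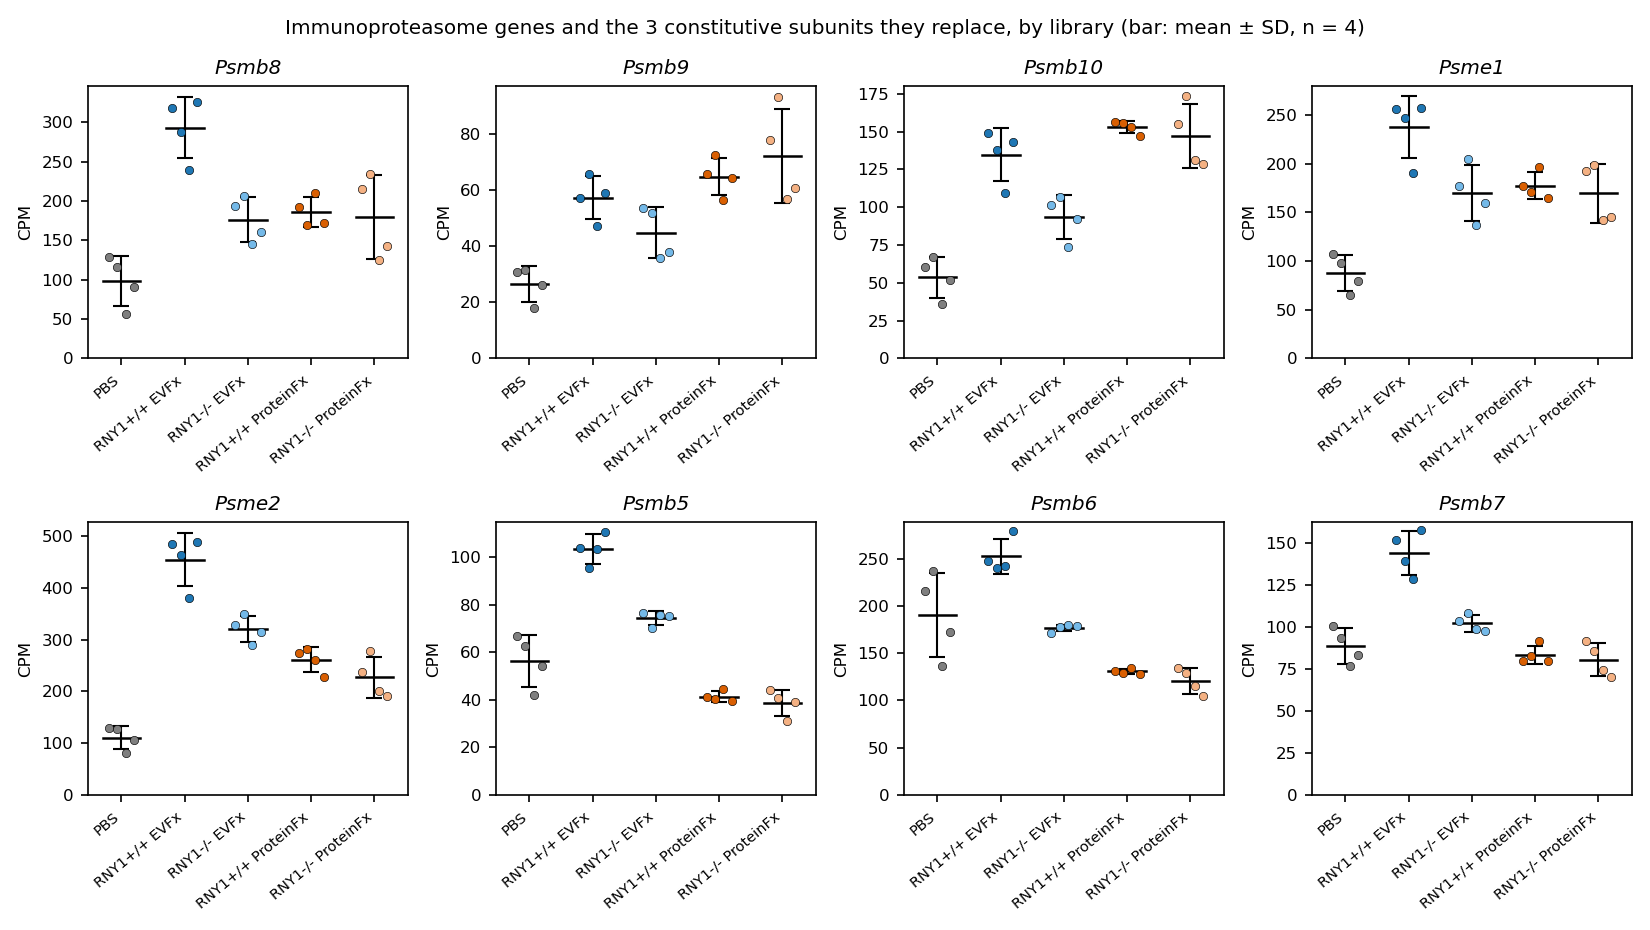
Levels in CPM (y axis, from 0) of the 5 immunoproteasome genes and of Psmb5, Psmb6 and Psmb7 in each library (points) of the 5 treatments (x axis), with the mean ± SD of 4 libraries. Psme2 averages 111 ± 23.0 CPM in PBS and 454 ± 50.6 in RNY1+/+ EVFx, while Psmb6 averages 190.4 ± 44.7 in PBS and 131 ± 2.85 in RNY1+/+ ProteinFx.

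The question of these comparisons was which proteasome genes differed from vehicle after each fraction. All 5 immunoproteasome genes were higher than PBS in each of the 4 comparisons by the quasi-likelihood F test of edgeR, with p-values adjusted over all genes tested by Benjamini-Hochberg, the source of every adjusted p here. A call is an adjusted p under 0.05, and a DEG also has an absolute log2 fold change above 1. The 4 comparisons share the PBS libraries and their values are given side by side. Among all genes tested, 21.7% were called higher and 22.8% lower in RNY1+/+ EVFx, 27.7% and 30.7% in RNY1-/- EVFx, 25.9% and 29.3% in RNY1+/+ ProteinFx, and 16.7% and 19% in RNY1-/- ProteinFx. DEGs with a rise made up 8.24%, 9.02%, 8.96% and 6.31% of genes in the same order, and 5, 4, 5 and 4 of the 5 immunoproteasome genes were among them. The shares of all genes called are the background of every later edgeR count against PBS with all libraries and TMM scaling. In any comparison, a count under another setting or at an unadjusted p may stand without such a share. It is then not read as particular to the proteasome genes.

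For Psmb8 the log2 fold changes ± SE against PBS were 1.76 ± 0.22 (adjusted p = 6.66e-05), 1.09 ± 0.22 (adjusted p = 0.00151), 1.09 ± 0.21 (adjusted p = 0.00111) and 0.93 ± 0.26 (adjusted p = 0.0198) in RNY1+/+ EVFx, RNY1-/- EVFx, RNY1+/+ ProteinFx and RNY1-/- ProteinFx. In the same order, Psmb9 gave 1.28 ± 0.17 (adjusted p = 0.00012), 0.99 ± 0.19 (adjusted p = 0.0011), 1.45 ± 0.17 (adjusted p = 3.38e-05) and 1.502 ± 0.20 (adjusted p = 0.000368). Psmb10 gave 1.499 ± 0.18 (adjusted p = 4.59e-05), 1.04 ± 0.18 (adjusted p = 0.000652), 1.67 ± 0.16 (adjusted p = 8.12e-06) and 1.51 ± 0.19 (adjusted p = 0.00018). Psmb8 thus had its highest value in RNY1+/+ EVFx, 3.38-fold, while Psmb10 had its highest in RNY1+/+ ProteinFx, 3.19-fold. Psme1 gave 1.62 ± 0.16 (adjusted p = 1.22e-05), 1.19 ± 0.17 (adjusted p = 0.000131), 1.18 ± 0.15 (adjusted p = 5.50e-05) and 1.01 ± 0.17 (adjusted p = 0.00152). Psme2 gave 2.21 ± 0.16 (adjusted p = 9.02e-07), 1.77 ± 0.15 (adjusted p = 2.92e-06), 1.40 ± 0.15 (adjusted p = 1.64e-05) and 1.10 ± 0.17 (adjusted p = 0.000914), or 4.63-fold in RNY1+/+ EVFx. Without PBS replicate 3 the 20 values fell to between 0.74 and 2.08 on the log2 scale and each kept its call. Psmb8 in RNY1-/- ProteinFx lost its call without PBS replicate 4 (0.89, adjusted p = 0.0554) and without RNY1-/- ProteinFx replicates 1 and 2 (0.58, adjusted p = 0.131).

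All 48 genes together summed to 5474 ± 326 in PBS, 8510.0 ± 124 in RNY1+/+ EVFx, 7729 ± 58.6 in RNY1-/- EVFx, 6518 ± 231 in RNY1+/+ ProteinFx and 6243 ± 314 in RNY1-/- ProteinFx (CPM, mean ± SD, n = 4). Counts called higher and lower against PBS were 35 and 1 of 48 in RNY1+/+ EVFx, 27 and 3 in RNY1-/- EVFx, 19 and 3 in RNY1+/+ ProteinFx, and 15 and 5 in RNY1-/- ProteinFx. Scaled to total counts in place of TMM, the splits were 21 and 9 in RNY1-/- EVFx and 16 and 13 in RNY1+/+ ProteinFx. Without PBS replicate 3, 10 genes were lower in RNY1-/- EVFx, 16 in RNY1+/+ ProteinFx and 11 in RNY1-/- ProteinFx. Without RNY1-/- ProteinFx replicates 3 and 4, edgeR called 10 higher and 0 lower in that group. The shares of all genes called under these settings are not reported here, so the shifts are not read as particular to the proteasome genes. The median log2 fold changes of the 48 were 0.70, 0.33, 0.07 and -0.02, while those of the 5 immunoproteasome genes were 1.62, 1.09, 1.40 and 1.10. The remaining 43 genes were called higher and lower in 30 and 1, 22 and 3, 14 and 3, and 10 and 5 cases in the order above.

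The exchanged pairs were compared as log2 ratios of counts within each library, which do not depend on the scaling between libraries. Since 3′ counts of unlike transcripts are not levels per length, only changes of a ratio are read, and no test was made because the pairs were chosen with results known. The log2 ratio Psmb8/Psmb5 was 0.95, 0.89, 0.42 and 0.75 in PBS, 1.62, 1.59, 1.21 and 1.56 in RNY1+/+ EVFx, 1.34, 1.55, 0.94 and 1.09 in RNY1-/- EVFx, 2.23, 2.08, 2.23 and 2.13 in RNY1+/+ ProteinFx and 2.29, 2.52, 2.00 and 1.87 in RNY1-/- ProteinFx. The log2 ratio Psmb9/Psmb6 was -2.81, -2.90, -2.94 and -2.72 in PBS, -2.11, -1.86, -2.36 and -2.24 in RNY1+/+ EVFx, -1.68, -1.77, -2.32 and -2.23 in RNY1-/- EVFx, -0.99, -0.84, -1.25 and -0.99 in RNY1+/+ ProteinFx and -0.79, -0.46, -1.02 and -0.78 in RNY1-/- ProteinFx. The log2 ratio Psmb10/Psmb7 was -0.74, -0.47, -1.10 and -0.69 in PBS, -0.03, -0.01, -0.23 and -0.14 in RNY1+/+ EVFx, -0.02, -0.02, -0.42 and -0.08 in RNY1-/- EVFx, 0.98, 0.92, 0.74 and 0.89 in RNY1+/+ ProteinFx and 0.76, 1.02, 0.83 and 0.87 in RNY1-/- ProteinFx. For all 3 pairs every ProteinFx library lay above every PBS and every EVFx library.

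As a multiple of the PBS mean ratio, Psmb8/Psmb5 was 1.67, 1.39, 2.67 and 2.67 in RNY1+/+ EVFx, RNY1-/- EVFx, RNY1+/+ ProteinFx and RNY1-/- ProteinFx. In that order Psmb9/Psmb6 was 1.62, 1.79, 3.54 and 4.23, and Psmb10/Psmb7 was 1.57, 1.53, 3.10 and 3.07. The ratios were thus higher in both ProteinFx groups than in both EVFx groups, although the summed level of the 5 immunoproteasome genes was highest in RNY1+/+ EVFx. That sum was 377 ± 92.0 in PBS, 1177 ± 144 in RNY1+/+ EVFx, 805 ± 103 in RNY1-/- EVFx, 842 ± 44.9 in RNY1+/+ ProteinFx and 795 ± 159 in RNY1-/- ProteinFx (CPM, mean ± SD, n = 4). The 14 constitutive core genes summed to 2795 ± 113 in PBS, 4043 ± 56.4 in RNY1+/+ EVFx, 3950.2 ± 129 in RNY1-/- EVFx, 3269.8 ± 161 in RNY1+/+ ProteinFx and 3139 ± 117 in RNY1-/- ProteinFx. The score, mean log2(CPM + 1) of the 5 minus that of the 14, exceeded PBS by 0.92, 0.57, 1.11 and 1.12. RNY1+/+ EVFx libraries reached -0.34 and RNY1-/- ProteinFx libraries began at -0.46, so they overlapped. For ProteinFx against EVFx, the median log2 fold change of the 5 minus that of the 14 was -0.01 in RNY1+/+ and 0.34 in RNY1-/-. The wider gap between fractions was thus seen for the pairs. With trends on transcript length and GC content removed from the fits, the log2 difference of fold changes against PBS stayed above 0 for each pair and group, from 0.13 for Psmb8/Psmb5 in RNY1-/- EVFx to 2.68 for Psmb10/Psmb7 in RNY1+/+ ProteinFx. The last value was 1.59 before removal. It depends on the longest Psmb7 transcript, with 40.8% GC beside a median of 51.0% for the constitutive beta ring, which need not be the one expressed.

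**Figure D2:**
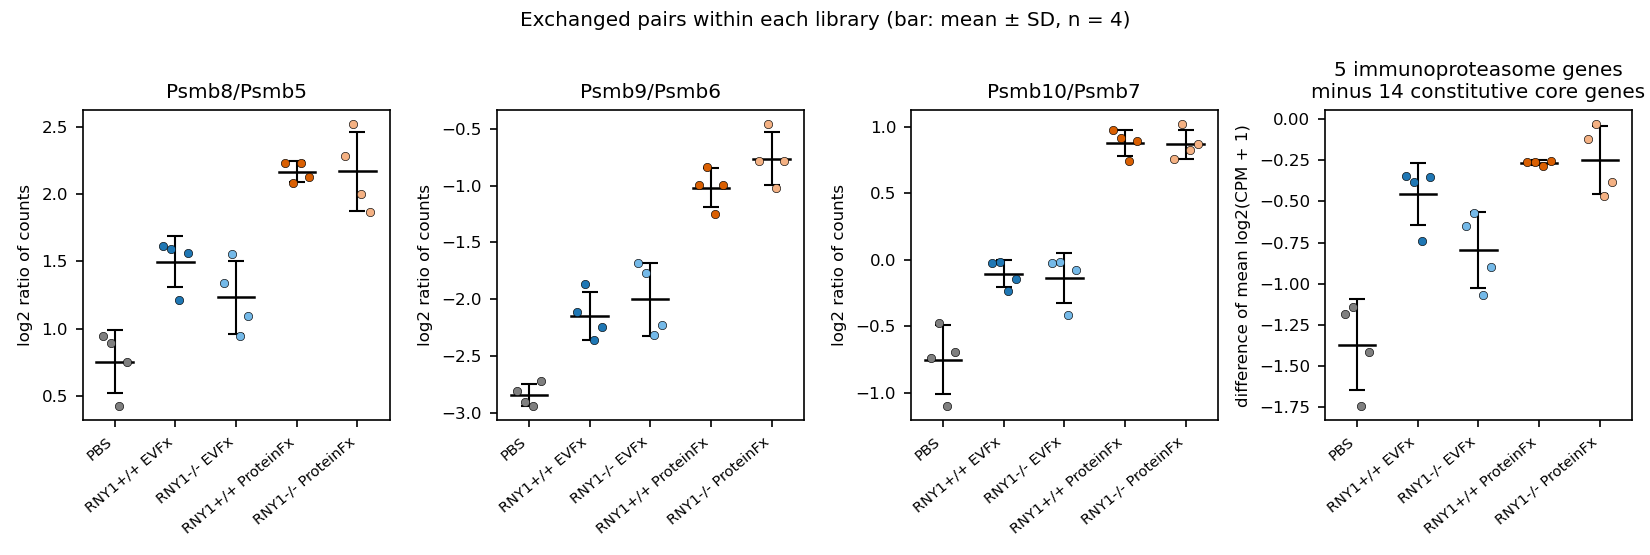
Within-library log2 ratios of counts of Psmb8/Psmb5, Psmb9/Psmb6 and Psmb10/Psmb7, and the mean log2(CPM + 1) of the 5 immunoproteasome genes minus that of the 14 constitutive core genes (y axes, each with its own range), by treatment (x axis); points are libraries and bars the mean ± SD of 4. The Psmb10/Psmb7 ratio averages -0.75 ± 0.26 in PBS, -0.10 ± 0.10 in RNY1+/+ EVFx and 0.88 ± 0.10 in RNY1+/+ ProteinFx.

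The constitutive catalytic subunits themselves moved differently by fraction. Psmb5, which carries chymotrypsin-like activity, was measured at 66.6, 62.5, 41.9 and 54.0 CPM in the PBS libraries, 104, 95.4, 103 and 111 in RNY1+/+ EVFx, 76.6, 70.3, 75.4 and 75.0 in RNY1-/- EVFx, 41.0, 40.2, 44.6 and 39.5 in RNY1+/+ ProteinFx and 44.0, 40.8, 31.3 and 39.0 in RNY1-/- ProteinFx. Its log2 fold changes against PBS were 1.05 ± 0.14 (adjusted p = 0.000103), 0.64 ± 0.14 (adjusted p = 0.00252), -0.28 ± 0.15 (adjusted p = 0.121) and -0.47 ± 0.17 (adjusted p = 0.0482) in RNY1+/+ EVFx, RNY1-/- EVFx, RNY1+/+ ProteinFx and RNY1-/- ProteinFx. It was thus called higher after EVFx of both genotypes and lower after RNY1-/- ProteinFx. The ProteinFx direction turned with length and GC trends removed, to 0.35 (adjusted p = 0.00427) in RNY1+/+ and 0.09 (adjusted p = 0.527) in RNY1-/-, while without PBS replicate 3 the RNY1+/+ ProteinFx value was -0.40 with an adjusted p of 0.00335.

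Psmb6, with caspase-like activity, was measured at 215, 237, 137 and 173 CPM in the PBS libraries, 247, 240.1, 242 and 279 in RNY1+/+ EVFx, 172, 178, 179 and 178 in RNY1-/- EVFx, 131, 129, 135 and 128 in RNY1+/+ ProteinFx and 134, 129, 116 and 104 in RNY1-/- ProteinFx. The same order of comparisons gave 0.58 ± 0.15 (adjusted p = 0.0102), 0.13 ± 0.15 (adjusted p = 0.478), -0.38 ± 0.15 (adjusted p = 0.0559) and -0.59 ± 0.17 (adjusted p = 0.0211), and without PBS replicate 3 the value in RNY1+/+ ProteinFx was -0.51 with an adjusted p of 0.000494. Psmb7, with trypsin-like activity, was measured at 101, 93.4, 76.9 and 83.2 CPM in the PBS libraries, 152, 139, 128 and 158 in RNY1+/+ EVFx, 103, 108, 98.6 and 97.6 in RNY1-/- EVFx, 79.5, 82.5, 91.4 and 79.3 in RNY1+/+ ProteinFx and 91.6, 85.5, 74.1 and 70.3 in RNY1-/- ProteinFx. Its values were 0.88 ± 0.11 (adjusted p = 8.84e-05), 0.44 ± 0.11 (adjusted p = 0.00445), 0.08 ± 0.11 (adjusted p = 0.571) and -0.07 ± 0.13 (adjusted p = 0.655), and with the trends removed the last 3 were -0.05 (adjusted p = 0.782), -0.44 (adjusted p = 0.0286) and -0.53 (adjusted p = 0.0413). PBS replicate 3 was the lowest PBS library for all 3 of these genes. The calls after RNY1-/- ProteinFx depended on single libraries, since Psmb5 lost its call without any 1 library other than PBS replicate 3 (-0.51 to -0.38, adjusted p = 0.062 to 0.139), and Psmb6 without PBS replicate 1 or 2 or RNY1-/- ProteinFx replicate 3 or 4 (-0.58 to -0.49, adjusted p = 0.0504 to 0.0688). Without RNY1-/- ProteinFx replicates 3 and 4, Psmb5 (-0.38, adjusted p = 0.234) and Psmb6 (-0.51, adjusted p = 0.1555) were not called in that group. Without replicates 1 and 2, Psmb5 was not called either (-0.55, adjusted p = 0.080). Of the 7 constitutive beta genes, 7 were called higher in RNY1+/+ EVFx, 3 in RNY1-/- EVFx and 0 in both ProteinFx groups, where 2 were lower in RNY1-/- ProteinFx. In RNY1+/+ ProteinFx edgeR called 0 higher and 0 lower, with 0 and 1 at an unadjusted p under 0.05, DESeq2 called 0 and 0, and with length and GC trends removed 2 were higher and 1 lower.

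Of the 7 alpha ring genes, 7, 7, 6 and 6 were called higher and 0 lower in the 4 comparisons, with medians of 0.77, 1.13, 0.74 and 0.48 on the log2 scale. With length and GC trends removed, 7, 7, 7 and 2 were called higher and the medians were 0.70, 0.87, 0.38 and 0.22, so 4 of the 6 calls in RNY1-/- ProteinFx were lost (Psma2, Psma3, Psma4 and Psma6). The shares of all genes called with the trends removed are not reported here. Psma5 had the largest rise of the ring in the first 3 comparisons and Psma1 in RNY1-/- ProteinFx. Psma5 was measured at 139.7, 137, 159 and 149.98 CPM in the PBS libraries, 347, 370.0, 378 and 319.9 in RNY1+/+ EVFx, 409, 376, 443 and 476 in RNY1-/- EVFx, 282, 309.5, 271 and 249 in RNY1+/+ ProteinFx and 187, 233, 293 and 243 in RNY1-/- ProteinFx. Its log2 fold changes were 1.45 ± 0.10 (adjusted p = 7.46e-07), 1.79 ± 0.12 (adjusted p = 4.29e-07), 1.09 ± 0.10 (adjusted p = 5.98e-06) and 0.78 ± 0.15 (adjusted p = 0.00361) in the order used above. No fraction-treated library was as low as a PBS library for this gene. Psma1 gave 0.62 ± 0.14 (adjusted p = 0.00469), 1.26 ± 0.14 (adjusted p = 2.43e-05), 1.00 ± 0.14 (adjusted p = 0.000136) and 0.94 ± 0.19 (adjusted p = 0.00413). Psma2 and Psma3 rose most in RNY1-/- EVFx, by 1.14 and 1.13, beside 0.74 and 0.81 in RNY1+/+ EVFx. Neither was called in RNY1-/- ProteinFx without that group's replicates 3 and 4 (0.45 and 0.34). Psma6 gave 0.29 in RNY1-/- ProteinFx, a call lost without any 1 of the 8 libraries (0.24 to 0.31), and Psma3 0.48, a call lost without PBS replicate 2 (0.42). Psma7 was the one alpha gene not called after ProteinFx, with -0.16 in RNY1+/+, where it was called at 0.38 with the trends removed, and -0.28 in RNY1-/- ProteinFx.

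The 17 genes of the 19S cap were called higher and lower in 12 and 0 cases in RNY1+/+ EVFx, 8 and 0 in RNY1-/- EVFx, 5 and 3 in RNY1+/+ ProteinFx, and 1 and 3 in RNY1-/- ProteinFx. Of all genes tested, 21.7% and 22.8%, 27.7% and 30.7%, 25.9% and 29.3%, and 16.7% and 19% were called higher and lower in that order. The 19S genes summed to 1854 ± 109 in PBS, 2641 ± 72.0 in RNY1+/+ EVFx, 2329 ± 49.5 in RNY1-/- EVFx, 1838 ± 44.5 in RNY1+/+ ProteinFx and 1775 ± 92.6 in RNY1-/- ProteinFx (CPM, mean ± SD, n = 4). Psmd11, a scaffold subunit of the lid, was measured at 133, 124, 118 and 128 CPM in the PBS libraries, 278, 276, 308 and 318 in RNY1+/+ EVFx, 217, 229, 227 and 243 in RNY1-/- EVFx, 136, 117, 153 and 131 in RNY1+/+ ProteinFx and 133, 133, 107 and 109.8 in RNY1-/- ProteinFx. It rose by 1.41 ± 0.10 (adjusted p = 6.37e-07) in RNY1+/+ EVFx and 1.11 ± 0.10 (adjusted p = 4.09e-06) in RNY1-/- EVFx, and after ProteinFx the log2 fold changes were 0.27 ± 0.11 (adjusted p = 0.0533) and 0.01 ± 0.11 (adjusted p = 0.955). The ATPase Psmc2 rose by 1.23, 1.02 and 0.45 in the first 3 groups and had 0.22 ± 0.14 (adjusted p = 0.232) in RNY1-/- ProteinFx, and its rise in RNY1+/+ ProteinFx was lost with length and GC trends removed (-0.07, adjusted p = 0.721). The ATPase Psmc6 rose in all 4, by 0.72, 1.29, 0.87 and 0.81. The last call was lost without RNY1-/- ProteinFx replicates 3 and 4 (0.53, adjusted p = 0.104). Psmd14, the deubiquitinase of the lid, rose by 0.96, 1.14 and 0.45 and had 0.19 ± 0.14 (adjusted p = 0.276) in RNY1-/- ProteinFx. With the trends removed Psmd14 was not called in RNY1+/+ ProteinFx (0.14), and Psmd11 was called lower in RNY1-/- ProteinFx (-0.46, adjusted p = 0.0495).

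The 19S genes called lower after ProteinFx were 3 of 17 in RNY1+/+ and 3 of 17 in RNY1-/-, beside 29.3% and 19% of all genes. These counts did not exceed those shares, so they are not read as particular to the 19S genes. Psmd2, which binds ubiquitin-like shuttle proteins, was lower, with -0.54 ± 0.15 (adjusted p = 0.0112) in RNY1+/+ and -0.64 ± 0.22 (adjusted p = 0.0456) in RNY1-/- ProteinFx. Psmd8, a lid subunit, was lower in the same groups, with -0.76 ± 0.16 (adjusted p = 0.00241) and -0.65 ± 0.19 (adjusted p = 0.0228). Psmd4, a ubiquitin receptor, was lower in RNY1+/+ ProteinFx (-0.57 ± 0.20, adjusted p = 0.028) and Psmd3, a lid subunit, in RNY1-/- ProteinFx (-0.81 ± 0.28, adjusted p = 0.0427). With the trends removed, Psmd4 (-0.30) and Psmd3 (-0.49) were not called there. The calls depended on single libraries too. In RNY1+/+ ProteinFx, Psmd4 lost its call in 6 of 8 fits without 1 library, all but those without PBS replicate 3 or 4 (-0.58 to -0.45). In RNY1-/- ProteinFx, calls were lost for Psmd3 in 6 fits, all but those without PBS replicate 3 or 4 (-0.86 to -0.61), for Psmd2 in 5, without PBS replicate 1, 2 or 4 or ProteinFx replicate 3 or 4 (-0.65 to -0.49), and for Psmd8 in 4, without PBS replicate 1 or 2 or ProteinFx replicate 3 or 4 (-0.60 to -0.54). Without RNY1-/- ProteinFx replicates 3 and 4, Psmd2 (-0.36, adjusted p = 0.289), Psmd8 (-0.47, adjusted p = 0.1985) and Psmd3 (-0.69, adjusted p = 0.227) were not called against PBS. Without replicates 1 and 2, Psmd3 was not called (-0.95, adjusted p = 0.0833), while Psmd4 (-0.86) and Psmd7 (-0.62) were called lower. Psmd13 had -0.76 ± 0.35 (adjusted p = 0.0831) in RNY1-/- EVFx against PBS, and with the replicate number as a block it was called at -0.74 (adjusted p = 0.0125). The labels do not say that equal numbers pair these samples.

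Assembly chaperones build the particle and leave it. Psmd10 (gankyrin), which helps the ATPase ring form, was measured at 32.4, 35.7, 40.03 and 30.4 CPM in the PBS libraries, 92.2, 109, 109.5 and 94.1 in RNY1+/+ EVFx, 123, 109, 134 and 132 in RNY1-/- EVFx, 103, 98.1, 76.4 and 107 in RNY1+/+ ProteinFx and 62.5, 59.6, 68.5 and 80.4 in RNY1-/- ProteinFx. Its log2 fold changes were 1.73 ± 0.12 (adjusted p = 6.69e-07), 2.09 ± 0.12 (adjusted p = 2.04e-07), 1.65 ± 0.14 (adjusted p = 2.46e-06) and 1.04 ± 0.15 (adjusted p = 0.00055), and no library of a treated group overlapped with PBS. Psmd5, another ATPase chaperone, was measured at 45.9, 41.1, 39.1 and 48.8 CPM in the PBS libraries, 84.8, 91.5, 104 and 89.2 in RNY1+/+ EVFx, 86.6, 85.0, 100.5 and 95.1 in RNY1-/- EVFx, 43.8, 42.1, 41.2 and 47.2 in RNY1+/+ ProteinFx and 41.6, 38.6, 38.2 and 40.2 in RNY1-/- ProteinFx. It rose by 1.25 ± 0.11 (adjusted p = 6.16e-06) and 1.31 ± 0.12 (adjusted p = 4.51e-06) after EVFx, whereas the ProteinFx values were 0.17 ± 0.12 (adjusted p = 0.255) and -0.08 ± 0.12 (adjusted p = 0.644). None of the chaperones Psmg1 to Psmg4, which build the alpha ring, was called higher than PBS in any group by edgeR with TMM scaling only. Psmg4 was lower in RNY1+/+ EVFx (-0.44 ± 0.13, adjusted p = 0.0151) and RNY1-/- EVFx (-0.58 ± 0.13, adjusted p = 0.00314), and Psmg1 (-0.40) and Psmg3 (-0.49) were lower in RNY1-/- EVFx. The calls of Psmg1 (-0.43 to -0.29) and Psmg3 (-0.53 to -0.35) were lost without any 1 library other than PBS replicate 3, and that of Psmg4 in RNY1+/+ EVFx without PBS replicate 4 or RNY1+/+ EVFx replicate 2 or 4 (-0.40 to -0.39). With the trends removed, Psmg4 had -0.22 and -0.03 after EVFx with no call, Psmg1 lost its call (-0.14), Psmg4 was called higher after ProteinFx (0.30 and 0.61), and Psmd5 was called lower after RNY1-/- ProteinFx (-0.38). Over the 7 chaperones, 2 were higher and 1 lower in RNY1+/+ EVFx, 2 and 3 in RNY1-/- EVFx, and 1 and 0 in each ProteinFx group.

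Psme4 (PA200), an alternative cap, rose by 0.84 ± 0.12 (adjusted p = 0.000209), 1.13 ± 0.13 (adjusted p = 4.11e-05), 1.02 ± 0.12 (adjusted p = 4.33e-05) and 0.66 ± 0.13 (adjusted p = 0.00324) in the 4 groups. Psme3, the nuclear PA28 gamma, and Psmf1, an inhibitor of the core, were not called against PBS in any. The Psme2-like gene Psme2b gave 1.85, 1.82, 1.54 and 1.31, all called. Its counts were fractional in 12 libraries and those of Psme2 in 13, so reads were shared out between near-identical places and the split between these genes is uncertain. Fractional counts occurred for 33 of the 48 genes in at least 1 library.

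**Figure D3:**
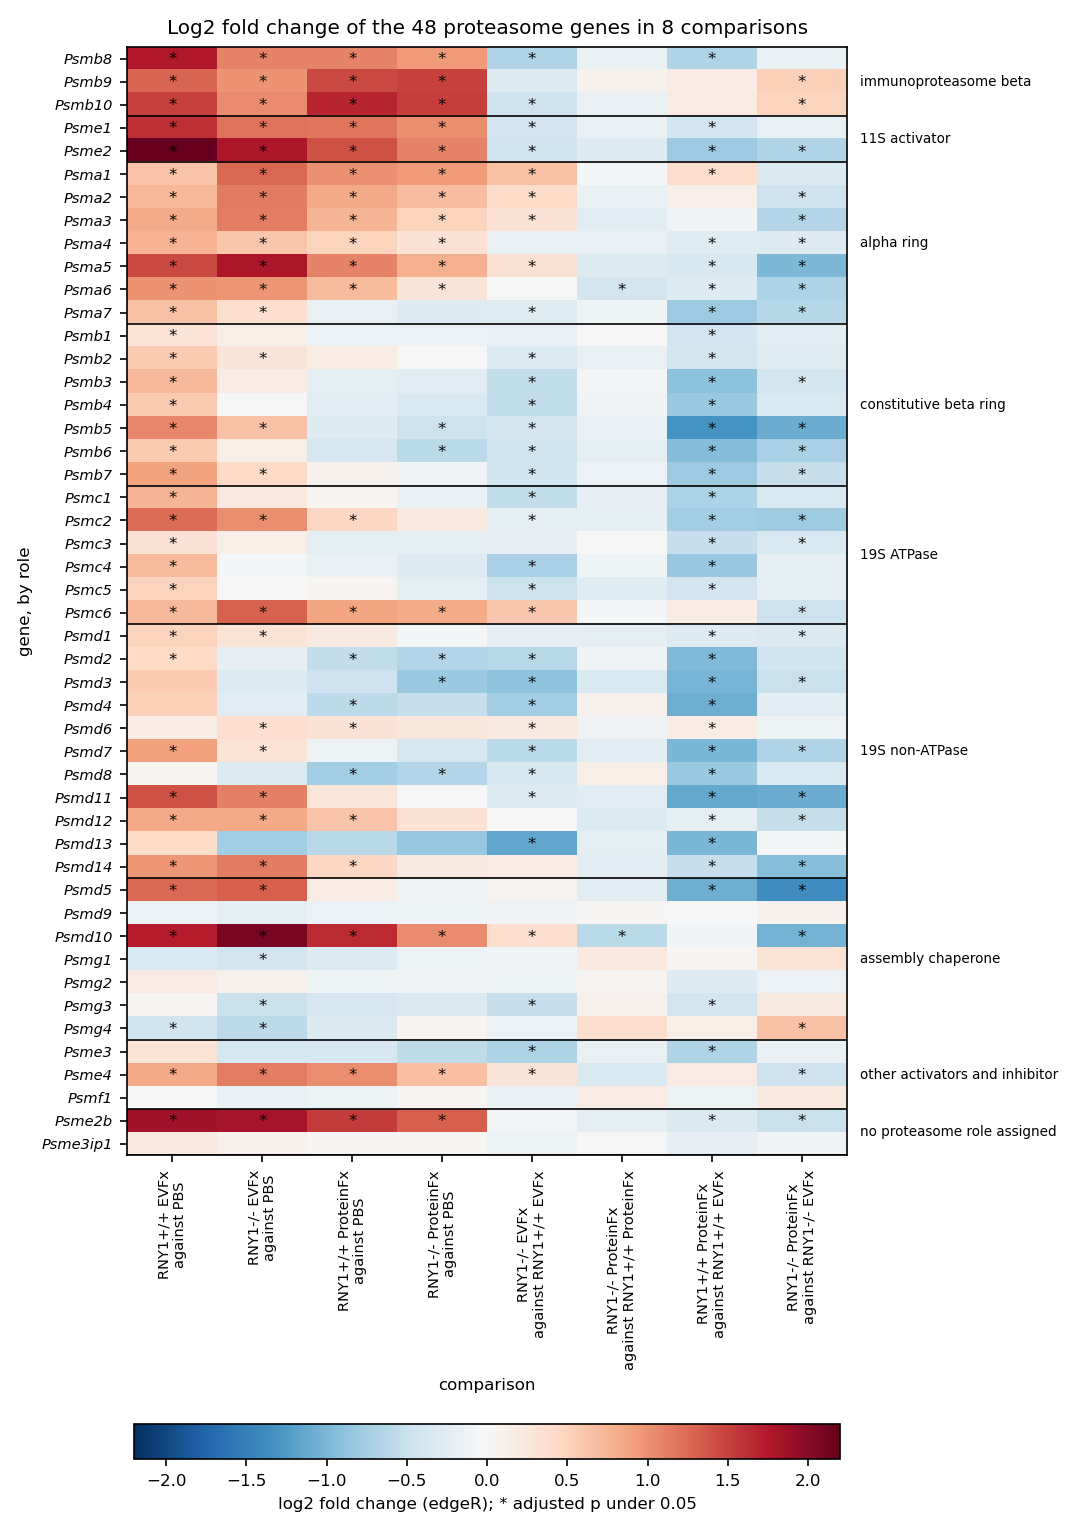
Log2 fold changes (colour) of the 48 genes (rows, by role) in the 8 two-group comparisons (columns), with a star where edgeR's adjusted p is under 0.05. The immunoproteasome rows are red and starred in all 4 columns against PBS, while the constitutive beta rows have 7 stars in RNY1+/+ EVFx and 2, both blue, in RNY1-/- ProteinFx.

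ProteinFx was compared with EVFx of the same donor genotype to see which genes differed between the fractions at the doses used. In RNY1+/+, 2 of the 48 genes were called higher and 33 lower in ProteinFx, beside 31.1% and 32.2% of all genes tested. In RNY1-/-, 3 were higher and 24 lower, beside 15.2% and 14.1%. Outside the immunoproteasome genes, the largest called rises in ProteinFx were Psma1 (0.38) in RNY1+/+ and Psmg4 (0.64) in RNY1-/-. With length and GC trends removed, Psma1 was not called higher in RNY1+/+. All 7 constitutive beta genes were lower in RNY1+/+ ProteinFx and 4 of 7 in RNY1-/- ProteinFx, and 7 of 7 in both with length and GC trends removed. Psmb5 had the largest fall among the beta genes, -1.32 ± 0.08 (adjusted p = 8.60e-09) in RNY1+/+ and -1.09 ± 0.11 (adjusted p = 9.64e-06) in RNY1-/-. Of the 19S genes, 15 were lower and 1 higher in RNY1+/+ (Psmd6, 0.17, not called without any 1 of the 8 libraries, nor with length and GC trends removed), and 9 were lower in RNY1-/-. Psmd11 had log2 fold changes of -1.13 ± 0.09 (adjusted p = 1.27e-07) and -1.09 ± 0.10 (adjusted p = 5.65e-06), and Psmd5 of -1.07 ± 0.09 (adjusted p = 2.04e-07) and -1.37 ± 0.10 (adjusted p = 1.01e-06). In RNY1+/+ the lid subunits Psmd3 (-1.02), Psmd7 (-1.004) and Psmd13 (-1.01) and the receptor Psmd4 (-1.08) were also lower in ProteinFx. Psmd10 was called lower in RNY1-/- ProteinFx (-1.04 ± 0.13, adjusted p = 8.46e-05) and not in RNY1+/+ (-0.07 ± 0.11, adjusted p = 0.605), a difference of -0.97 ± 0.18 (adjusted p = 0.00281) by the interaction test, although with the trends removed it was called in RNY1+/+ too (-0.33).

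The immunoproteasome genes did not move as one between fractions. Psme2 was lower in ProteinFx of both genotypes, -0.80 ± 0.10 (adjusted p = 4.80e-06) and -0.66 ± 0.12 (adjusted p = 0.000853). Psmb8 (-0.66 ± 0.10, adjusted p = 6.53e-05) and Psme1 (-0.43 ± 0.10, adjusted p = 0.00169) were lower in RNY1+/+ ProteinFx, while in RNY1-/- they had -0.14 ± 0.17 (adjusted p = 0.606) and -0.16 ± 0.14 (adjusted p = 0.412). Psmb9 and Psmb10 were higher in RNY1-/- ProteinFx, by 0.53 ± 0.16 (adjusted p = 0.0268) and 0.49 ± 0.13 (adjusted p = 0.0116), and had 0.17 ± 0.10 (adjusted p = 0.162) and 0.18 ± 0.09 (adjusted p = 0.0981) in RNY1+/+. With length and GC trends removed, Psmb9 and Psmb10 were also called higher in RNY1+/+ ProteinFx (0.52 and 0.65), and Psme1 turned to 0.03 with no call. Psmb9 in RNY1-/- lost its call without EVFx replicate 3 or 4 or ProteinFx replicate 1 or 2 (0.39 to 0.51). Without ProteinFx replicates 1 and 2 together, Psmb9 (0.27) and Psmb10 (0.36) were not called. Psmb8 was then called lower in RNY1-/- ProteinFx too (-0.50, adjusted p = 0.0148). With the replicate number as a block in the RNY1-/- comparison, a pairing that the labels do not state, 3 more of the named genes were called lower. These were Psma1 (-0.34, adjusted p = 0.0294), Psmd2 (-0.45, adjusted p = 0.0390) and Psmd8 (-0.34, adjusted p = 0.0217). Without block they had -0.31, -0.43 and -0.33, with no call.

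Within EVFx, RNY1-/- was compared with RNY1+/+ to ask what the donors' genotype changed. Of the 48 genes 8 were called higher and 24 lower in RNY1-/- EVFx, beside 25.5% and 26.6% of all genes. With length and GC trends removed, 3 were higher and 20 lower. The shares of all genes called with the trends removed are not reported here. Before that removal the alpha ring had 4 higher and 1 lower, the constitutive beta ring 0 and 6, and the 19S cap 2 and 11. Psma1 (0.64 ± 0.09, adjusted p = 0.000232) and Psmc6 (0.58 ± 0.09, adjusted p = 0.000351) had the largest rises, and Psmd13 (-1.14 ± 0.16, adjusted p = 0.000247), Psmd3 (-0.88 ± 0.14, adjusted p = 0.000393) and Psmd4 (-0.74 ± 0.10, adjusted p = 0.000232) the largest falls. Psma2 came next among the rises, with 0.33 to 0.47 when single libraries were left out. Psmd13 was measured at 20.8, 17.8, 19.2 and 23.1 CPM in RNY1+/+ EVFx and 11.6, 9.08, 7.14 and 6.39 in RNY1-/- EVFx, without overlap, but its PBS libraries spread from 7.09 to 27.0 CPM.

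Of the immunoproteasome genes, 4 were lower in RNY1-/- EVFx, namely Psmb8 with -0.66 ± 0.12 (adjusted p = 0.00068), Psmb10 with -0.45 ± 0.12 (adjusted p = 0.00625), Psme1 with -0.41 ± 0.12 (adjusted p = 0.0111) and Psme2 with -0.43 ± 0.09 (adjusted p = 0.00173). Psmb9 had -0.28 ± 0.13 (adjusted p = 0.0833). The constitutive partners were called lower too, with -0.40 for Psmb5, -0.44 for Psmb6 and -0.43 for Psmb7, of which Psmb5 had 0.00 with no call once length and GC trends were removed. Fold changes in this comparison followed transcript GC content. Over the 48 genes the Spearman correlation of log2 fold change with GC was -0.605, and over the 10019 genes with a length it was -0.654, across genes that share their libraries. The median GC content of the longest transcripts was 54.1% for the 5 immunoproteasome genes, 51.0% for the constitutive beta ring and 45.0% for the alpha ring. With the trends removed, the correlation over the 48 was 0.0207, a value near 0 that the removal itself largely sets. Only Psmb8 of the 5 was then called, at -0.43 (adjusted p = 0.00552). Psmb9, Psmb10, Psme1 and Psme2 then had 0.05, -0.04, -0.00018 and -0.20. Against PBS the 5 genes kept all their calls with the trends removed.

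**Figure D4:**
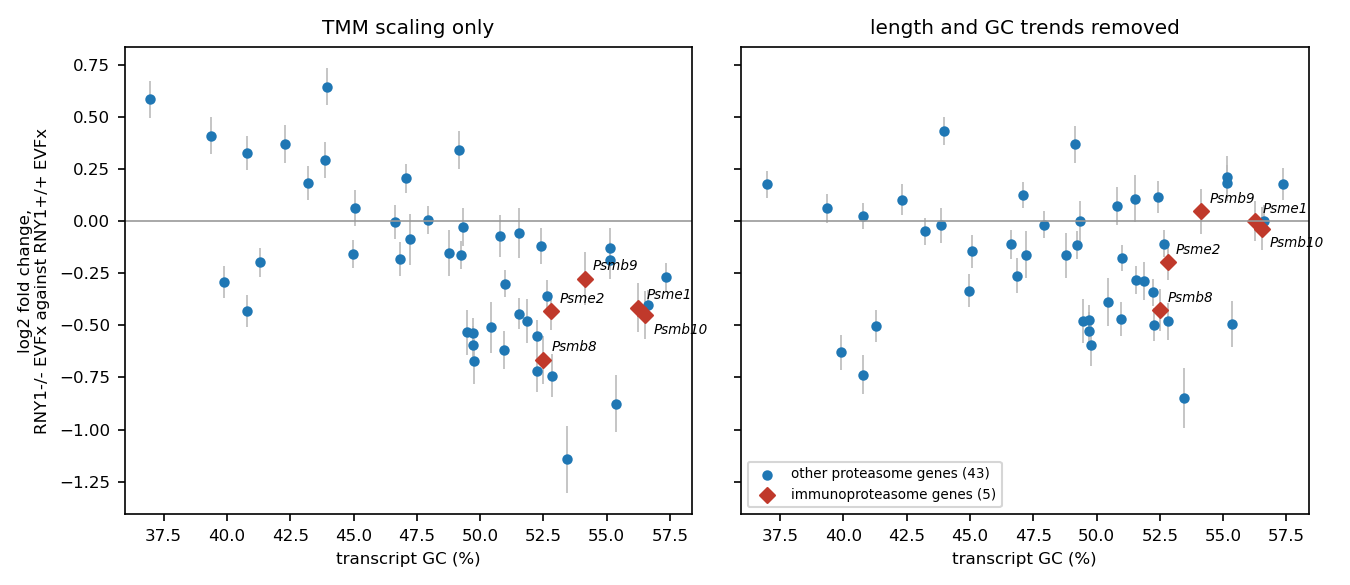
Log2 fold change of RNY1-/- EVFx against RNY1+/+ EVFx (y axis, point ± SE) by transcript GC content in percent (x axis) for the 48 genes, with TMM scaling only (left) and with length and GC trends removed (right). On the left the points fall with GC (Spearman -0.605) and on the right they do not (0.0207). The removal fits GC over all genes, these 48 among them, so a value near 0 on the right is largely built in.

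Within ProteinFx, 0 of the 48 genes were called higher and 2 lower in RNY1-/- by edgeR, beside 2.2% and 3.37% of all genes, with 1 and 8 at an unadjusted p under 0.05, and DESeq2 called 0 and 3. The shares of all genes at an unadjusted p and by DESeq2 are not reported here. Without RNY1-/- ProteinFx replicates 3 and 4 the counts were 3 and 10, beside 1358 and 1545 of the 10482 genes tested, and without replicates 1 and 2 they were 0 and 3. The called genes were Psmd10 (-0.60 ± 0.15, adjusted p = 0.0295) and Psma6 (-0.40 ± 0.10, adjusted p = 0.0298). Psma6 lost its call without any 1 library other than RNY1-/- ProteinFx replicate 3 (-0.42 to -0.37), and Psmd10 without RNY1+/+ ProteinFx replicate 1, 2 or 4 or RNY1-/- ProteinFx replicate 1 or 2 (-0.59 to -0.52). No immunoproteasome gene was called with all 8 libraries and TMM scaling only. Psme2 was called lower with length and GC trends removed (-0.34, adjusted p = 0.0241) and without RNY1-/- ProteinFx replicates 1 and 2 (-0.45, adjusted p = 0.0214), where Psmb8 was called lower too (-0.51, adjusted p = 0.0171). With all 8 libraries the values and 95% confidence intervals were -0.14 (-0.50 to 0.21) for Psmb8, 0.08 (-0.23 to 0.38) for Psmb9, -0.14 (-0.36 to 0.08) for Psmb10, -0.15 (-0.40 to 0.10) for Psme1 and -0.29 (-0.54 to -0.03) for Psme2. Within RNY1-/- ProteinFx, replicates 1 and 2 were above replicates 3 and 4 for all 5 genes.

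Whether the donors' genotype acted differently in the 2 fractions was tested by an interaction term fitted to the 16 fraction-treated libraries, coded as the effect in ProteinFx minus that in EVFx. It was called above 0 for 9 of the 48 genes and below 0 for 9, beside 16.8% and 16.2% of all genes. These counts lie near the shares of all genes and are not read as particular to the proteasome genes. Scaled to total counts the split was 19 and 7, and with length and GC trends removed 3 and 4. The shares of all genes called under these 2 settings are not reported here. The alpha ring had 5 below 0, and Psmd10 had the lowest value of the 48. The constitutive beta ring had 2 above 0 and the 19S cap 5 above and 2 below, led by Psmd13 (0.97 ± 0.29, adjusted p = 0.0175) and Psmd4 (0.84 ± 0.19, adjusted p = 0.00633), of which Psmd13 was not called with the trends removed (0.62). For the immunoproteasome genes edgeR called 0 above and 0 below, with 1 and 0 at an unadjusted p under 0.05, and DESeq2 called 0 and 0. A genotype difference in EVFx that ProteinFx lacks was thus not shown for these 5.

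Of 27 genes associated with the proteasome, 26 were tested (Paaf1 was not). They were called higher and lower in 12 and 2 cases in RNY1+/+ EVFx, 15 and 2 in RNY1-/- EVFx, 4 and 3 in RNY1+/+ ProteinFx and 2 and 4 in RNY1-/- ProteinFx against PBS. Among all genes tested the shares called were 21.7% and 22.8%, 27.7% and 30.7%, 25.9% and 29.3%, and 16.7% and 19% in the same order. Nfe2l1, the transcription factor that raises proteasome genes when the proteasome is inhibited, was higher by 1.67 ± 0.16 (adjusted p = 1.05e-05), 1.25 ± 0.17 (adjusted p = 9.32e-05) and 0.85 ± 0.17 (adjusted p = 0.00152) in the first 3 groups and had 0.35 ± 0.18 (adjusted p = 0.136) in RNY1-/- ProteinFx, where it was called at 0.63 with length and GC trends removed. It was lower in RNY1-/- than in RNY1+/+ in EVFx (-0.41, not called with the trends removed, -0.13) and in ProteinFx (-0.48), the one associated gene called in the latter. Zfand5, which binds the 19S cap, rose in RNY1-/- EVFx (1.10) and was lower in RNY1-/- ProteinFx than in that group (-1.23). Zfand2a was lower in all 4 groups than in PBS (-0.54, -0.69, -1.05 and -0.81).

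Between the RNY1+/+ fractions Nploc4, a cofactor of the segregase Vcp, was among the associated DEGs and was lower in ProteinFx (-1.39). Pomp, the chaperone that matures the beta ring, was not called against PBS in any group (0.42, -0.06, -0.10 and -0.10) and was lower in RNY1-/- EVFx than in RNY1+/+ EVFx (-0.47). Over the 26 genes, the other comparisons gave 8 higher and 10 lower between the EVFx genotypes, 0 and 1 between the ProteinFx genotypes, 6 and 17 between the RNY1+/+ fractions, and 2 and 13 between the RNY1-/- fractions, beside 25.5% and 26.6%, 2.2% and 3.37%, 31.1% and 32.2%, and 15.2% and 14.1% of all genes. Tap1 and Tap2, peptide transporter genes that lie beside Psmb8 and Psmb9 in the MHC, were also followed. Tap1 rose by 2.13, 1.81, 2.10 and 1.83, and Tap2 by 1.23 in RNY1+/+ EVFx, with 0.50, 0.42 and 0.21 and no call in the other groups. With the trends removed Tap2 was called higher there too (0.92, 0.87 and 0.60).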

How the data were processed

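Gene expression was measured by 3′-end RNA-seq in 20 macrophage libraries. The authors deposited expected counts, which their provider made by trimming (fastp 0.24.0), alignment (STAR 2.7.11), removal of duplicates by molecular identifier and strand-specific counting over exons and 3′ UTRs (featureCounts, Subread 2.1.1), with multi-mapping reads shared out as fractions. The authors also deposited CPM, each count over its library total. The labels' processing notes name GRCm39. Lengths and GC were those of each gene's longest GENCODE transcript, and promoters came from RefSeq, both on GRCm38. The longest transcript need not be the one expressed (for Psmb7 it has 2849 bases and 40.8% GC). Values with length and GC trends removed depend on that choice.

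Counts were rounded and tested with edgeR 4.0.16 (R 4.3.3; TMM, glmQLFit, glmQLFTest) over the 8 libraries of each comparison, on genes passing filterByExpr and a mean of 3 CPM, with Benjamini-Hochberg adjustment over all genes tested. SEs were derived from each log2 fold change and its F statistic. Length and GC trends were removed with splines of 4 degrees of freedom. DESeq2 1.42.0 was an alternative, as were other scalings, filters, all 20 libraries in 1 fit, blocks and left-out libraries. The edgeR script was tested on simulated data. Tables were handled in Python 3.11.15 with numpy 2.4.6 and pandas 2.3.3.

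Depth ranged from 2510005 to 8277366 counts per library, which limits the precision of genes near 3 CPM. Samples were grouped by their labels. The members and lists were chosen with earlier results of these data known. Named were the 5 immunoproteasome genes, Psmb5, Psmb6 and Psmb7, the 3 largest called rises and falls among the rest in each comparison, DEGs, and, of the associated list, DEGs and Pomp, plus Tap1 and Tap2. Some DEGs of the associated list are not reported here. Psma4, Psma7, Psme3 and Psmf1 were named after their values were seen. Deviations of same-numbered libraries correlated above 0.1 in all 4 pairs for PBS with RNY1-/- EVFx (0.140 to 0.393). They also did for RNY1-/- EVFx with RNY1-/- ProteinFx (0.218 to 0.416), so the numbers were taken to pair the samples in these comparisons. For PBS with RNY1-/- ProteinFx the values were 0.527, 0.639, 0.656 and 0.023, and the numbers were not taken as pairs. The labels name no pairing, and libraries of unlike number were not correlated. The pairing on which the blocked fits rest is thus not shown. Blocked counts for every comparison stand in the last section.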

Additional observations from a re-analysis of the deposited data

Results flagged for a closer look

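In 8 of 175 groups of 4 values, 1 library lay further from the nearest other than Dixon's 95% limit for 4 samples allows, a rate near the 1 in 20 that chance gives. These were Psmc2 in PBS replicate 3 (100.2 CPM), Psmd2 in RNY1+/+ EVFx replicate 4 (133 CPM), Psme1 in RNY1+/+ EVFx replicate 3 (190.2 CPM), Psme2b in RNY1-/- ProteinFx replicate 2 (85.2 CPM) and Psme4 in RNY1-/- ProteinFx replicate 3 (127 CPM). The log2 ratio Psmb8/Psmb5 (1.21) and the immunoproteasome score (-0.74) in RNY1+/+ EVFx replicate 3, and the log2 ratio Psmb10/Psmb7 in RNY1-/- EVFx replicate 3 (-0.42), stood apart in the same way.

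The effect of the donors' genotype differed between the fractions by the edgeR interaction test for 18 of the 48 genes. These were 9 above 0 and 9 below 0, beside 16.8% and 16.2% of all genes tested. The counts lie near those shares and are not read as particular to the proteasome genes. The difference was below 0 (log2, ProteinFx minus EVFx) for Psmd10 (-0.97), Psma1 (-0.69), Psma5 (-0.64), Psmc6 (-0.64), Psme4 (-0.64), Psma3 (-0.58), Psma2 (-0.56), Psmd14 (-0.43) and Psma6 (-0.40). It was above 0 for Psmd8 (0.48), Psmb4 (0.49), Psmb3 (0.50), Psmg4 (0.51), Psmd2 (0.54), Psmg3 (0.60), Psmc4 (0.63), Psmd4 (0.84) and Psmd13 (0.97). Over all genes the interaction followed GC content (Spearman 0.585). With length and GC trends removed, it was called above 0 for Psmd4, Psmb7 and Psmb3 and below 0 for Psma6, Psma1, Psmd10 and Psma5.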

How the results depend on the processing

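Of the immunoproteasome genes' 350 alternative values against PBS, 348 kept their direction and call. The other two, for Psmb8 in RNY1-/- ProteinFx, stand in the report. Counts of genes called lower against PBS moved most. In RNY1+/+ EVFx (main count 1) they were 2 under total counts, 0 without filter, 2 with all 20 libraries, and 0 with trends removed, with or without the replicate block. In RNY1-/- EVFx (main 3) they were 1 in DESeq2, 9 under total counts, 1 under housekeeping scaling, 5 with all 20 libraries and 1 with trends removed. In RNY1+/+ ProteinFx (main 3) they were 13 under total counts, 6 without filter and 8 with all 20 libraries. In RNY1-/- ProteinFx (main 5) they were 11 with all 20 libraries, 13 with the replicate block, 13 with block and trends removed and 0 without replicates 3 and 4. Between the EVFx genotypes, 3 were higher with trends removed, with or without block. Between the ProteinFx genotypes (0 higher, 2 lower), 3 were higher without replicates 3 and 4, and the lower count was 1 under total counts, 0 under housekeeping scaling, 1 without filter, 4 with all 20 libraries, 0 with the replicate block and 10 without replicates 3 and 4. Between fractions, the higher count in RNY1+/+ (main 2) was 1 under housekeeping scaling, without filter, with all 20 libraries and with the replicate block, and in RNY1-/- (main 3) it was 1 without replicates 1 and 2. The interaction gave 19 higher under total counts, and 3 higher and 4 lower with trends removed. With Psmb5, Psmb6 and Psmb7 as reference, the score differences from PBS were 1.55 in RNY1+/+ and 1.58 in RNY1-/- ProteinFx. Causes of these moves were not tested, and the shares of all genes called under these settings are not given beside them. Total counts shifted the median of all genes to -0.21, -0.27, -0.20 and -0.10 (log2) in the 4 comparisons with PBS, 0.11 between the ProteinFx genotypes, 0.19 between the RNY1-/- fractions and 0.17 in the interaction.

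Leaving out 1 library at a time gave 31 to 37 genes higher and 0 to 2 lower in RNY1+/+ EVFx, 24 to 27 and 1 to 10 in RNY1-/- EVFx, 18 to 20 and 2 to 16 in RNY1+/+ ProteinFx, and 12 to 14 and 0 to 11 in RNY1-/- ProteinFx, all against PBS. It gave 6 to 8 and 24 to 27 between the EVFx genotypes, 0 to 0 and 0 to 4 between the ProteinFx genotypes, 1 to 2 and 31 to 33 between the RNY1+/+ fractions, and 2 to 3 and 18 to 26 between the RNY1-/- fractions. The score differences ranged from 0.79 to 1.01, 0.45 to 0.66, 0.98 to 1.18 and 1.00 to 1.197. PBS replicate 3 gave the upper end of every lower count against PBS (2, 10, 16 and 11 without it). Without PBS replicate 4, RNY1+/+ EVFx 2 or RNY1+/+ EVFx 4, 0 were lower in RNY1+/+ EVFx, and 1 was lower in RNY1-/- EVFx without any of the other 7 libraries. In RNY1-/- ProteinFx, 0 were lower without PBS 1 or 2 or RNY1-/- ProteinFx 3 or 4, and 3 without PBS 4 or RNY1-/- ProteinFx 1 or 2. Between the ProteinFx genotypes, 0 were lower without RNY1+/+ ProteinFx 1, 2 or 4 or RNY1-/- ProteinFx 1 or 2, 1 without RNY1+/+ ProteinFx 3 or RNY1-/- ProteinFx 4, and 4 without RNY1-/- ProteinFx 3. Between the RNY1+/+ fractions, 1 was higher without any EVFx library or ProteinFx 1 or 4.

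Where a value was called in either fit, it changed sign only with length and GC trends removed, among the alternatives run, given first without and then with block where both did. These were Psmb7 (-0.0517 and -0.0332) in RNY1-/- EVFx, Psmb5 (0.35 and 0.35), Psmb7 (-0.44), Psmc2 (-0.0708 and -0.06) and Psmg4 (0.30) in RNY1+/+ ProteinFx, and Psmb5 (0.0935 and 0.0920), Psmc2 (-0.24) and Psmd11 (-0.46 and -0.47) in RNY1-/- ProteinFx against PBS. Between the EVFx genotypes they were Psmb5 (0.0016 and 0.0024) and Psme4 (-0.0189 and -0.0220), and between the RNY1+/+ fractions Psma2 (-0.27 and -0.27), Psmc6 (-0.30 and -0.30) and Psme1 (0.0281 and 0.0335). Uncalled values near 0 also changed sign without single libraries, such as Psmd8 in RNY1+/+ EVFx, from 0.0623 to -0.078 without PBS replicate 3. With the replicate block the pairs gave 37 higher and 1 lower, 27 and 4, 18 and 3, and 19 and 13 against PBS in the usual order, 8 and 25 between the EVFx genotypes, 0 and 0 between the ProteinFx genotypes, 1 and 32 and 3 and 30 between fractions, and 8 and 9 in the interaction. For PBS with RNY1-/- ProteinFx the deviations of same-numbered libraries correlated at 0.527, 0.639, 0.656 and 0.023. Not every pair was above 0.1, so the numbers were not taken to pair these samples. This conflicts with the comparisons taken as paired, since both include RNY1-/- EVFx and together would pair these samples too. In the comparisons taken as paired, the block changed no other named call than those printed in the report.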
